A study of Sus scrofa with 14 samples.

Results

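The amino acid transporter families are 56 genes among the 30071 gene identifiers counted in a study of the porcine mammary gland. They were taken by symbol, as every gene whose name in the files was SLC1A, SLC3A, SLC6A, SLC7A, SLC36A, SLC38A or SLC43A followed by a number. Earlier results of these data were known when the families were chosen. Multiparous sows on a normal diet were sampled on day 90 of gestation (G90), on day 0 (L0) and day 20 (L20) of lactation, and on day 2 (PI2) and day 7 (PI7) of natural involution, when the gland regresses without suckling. No treatment or genetic change was applied, and breed and age are not given in the sources used here. Nuclei were sequenced from 2 glands per stage, each of 1 sow, and the RNA of tissue spots was sequenced from 1 section at G90 and 1 at PI2. Cells shed into milk were sequenced from 1 colostrum sample (L0) and 1 sample of mature milk (L20). The question asked of these data here is in which cell types and at which stages each transporter was detected.

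Amino acids cross the plasma membrane on carriers, and the lactating mammary epithelium takes them from blood to build caseins and other milk proteins. The SLC1 family holds sodium-coupled carriers of glutamate and aspartate and exchangers of neutral amino acids. The SLC6 family holds sodium- and chloride-coupled carriers of amino acids, and also of neurotransmitters, taurine and creatine. SLC7 proteins are either cationic amino acid transporters or light chains that pair with a heavy chain of SLC3, SLC3A2 (also known as 4F2hc or CD98) or SLC3A1 (rBAT). SLC36 carriers move small amino acids together with protons, SLC38 carriers move neutral amino acids such as glutamine together with sodium, and several members of both families sit in the lysosome. SLC43A1 and SLC43A2 carry large neutral amino acids, while SLC43A3 carries purine nucleobases. Of related genes, SLC38A1, SLC7A6 and SLC6A16 have no symbol in the files and were not analysed here.

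A unique molecular identifier (UMI) marks each RNA molecule counted. Total UMIs ranged from 18962138 to 53165191 per gland, 126833 nuclei were kept, and the members took 0.150 to 0.259% of the UMIs of a gland. All levels are given in CPM, that is UMIs per 1000000 UMIs of the same library or class, so that a level of 1 gene can be compared between samples but not with another gene. Between 53 and 56 members were detected in each gland, 51 and 44 in the sections, and 56 and 51 in the milk libraries. Nuclei were assigned to a class when they held at least 2 different marker genes of it and more of them than of any other class. No member was a marker. By this gate, luminal epithelial nuclei made up 27.7 to 82.8% of the nuclei in 9 glands but 9.31% in L20 replicate 2, which also held 30.6% fibroblast, 14.9% macrophage and 2.09% adipocyte nuclei. Pairs of gland libraries shared 52 to 205 cell barcodes and the milk libraries shared 284. The sections shared 2248 spot barcodes, which belong to a fixed grid.

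The order of the members depends on whether CPM is divided by the annotated span of the gene, so neither order below ranks expression. By median CPM over 10 whole glands, SLC38A2 (245.2), SLC1A3 (152.7) and SLC38A9 (143.7) came first. Per kilobase of the annotated gene, introns included, SLC38A2 came first with a median of 17.2 CPM per kilobase. SLC38A2 is a sodium-coupled carrier of small neutral amino acids. SLC38A3 and SLC3A2 followed with 2.63 and 2.61 CPM per kilobase and SLC6A14 with 2.21. The spread between glands does not separate these last 3 members, since SLC38A3 ranged from 7.27 to 103.5 CPM and SLC6A14 from 8.31 to 273 CPM. At the other end, SLC7A3 held 26 UMIs over all glands and was detected in 4 of 10, SLC6A19 held 70 and SLC6A18 held 96. In all, 12 members had a median under 2 CPM in the whole glands. Of these 12, 10 were highest in L20 replicate 2 and 2 in PI7 replicate 1. Those libraries had the most genes detected, 27687 and 27229 against 23811 to 26679 in the others, and its part in these levels was not tested. The annotated spans of SLC36A2 (chromosome 16, 71661946 to 71689464) and SLC36A3 (71689211 to 71732634) overlap, so UMIs of the shared stretch could belong to either.

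Classes of nuclei were compared on UMIs summed per gland and class. At least 20 nuclei were needed, which left 71 sums of 8 classes: 10 glands for each class except mural cells, which wrap small vessels (5 glands), and B and plasma cells (6 glands). Each class was set against the mean of the other classes with edgeR's quasi-likelihood test and the gland as a block. In CPM, the others stand for the plain mean of the other classes in the same gland. A class above or below the others lay above or below that mean, not each class. The CPM given for the others is the median of that mean over all 10 glands, also beside mural or B and plasma nuclei. Calls needed over 2-fold and a Benjamini-Hochberg adjusted p (over 12648 genes) below 0.05. Of the 56 members, 33 passed the filter on low counts. A gene can pass it through the class where it is high, so the counts below describe these 33 members and not the families. They held 46 calls in 26 members, 29 higher and 17 lower, and 7 of the 33 had none. The comparisons share their samples, since each class is part of the mean the others are set against.

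Macrophage nuclei had the most members called higher, 9 against 2 lower, where 9.64% of all genes tested were higher and 8.19% lower. Luminal epithelial nuclei had 5 higher and 7 lower (11.1 and 14% of all genes). In mural nuclei 4 were higher and 2 lower (6.76 and 5.41%), in B and plasma nuclei 4 and 1 (3.41 and 3.29%), and in fibroblast nuclei 3 and 1 (9.44 and 2.05%). T and NK lymphocyte nuclei had 2 higher and 0 lower by edgeR (7.23 and 7.42%), with 8 of 33 members and 5205 of 12648 genes at an unadjusted p under 0.05 in either direction. Endothelial nuclei had 1 higher and 2 lower (9.54 and 2.74%), as did myoepithelial nuclei, the contractile cells around the alveoli (7.67 and 7.88%). The median log2 fold change of the members was 0.12 in macrophage nuclei, against -0.03 over all genes, and 0.01 in luminal nuclei, against 0.22. The heat map of these calls shows the luminal and macrophage blocks and the strong single entries of mural and endothelial nuclei.

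**Figure D1:**
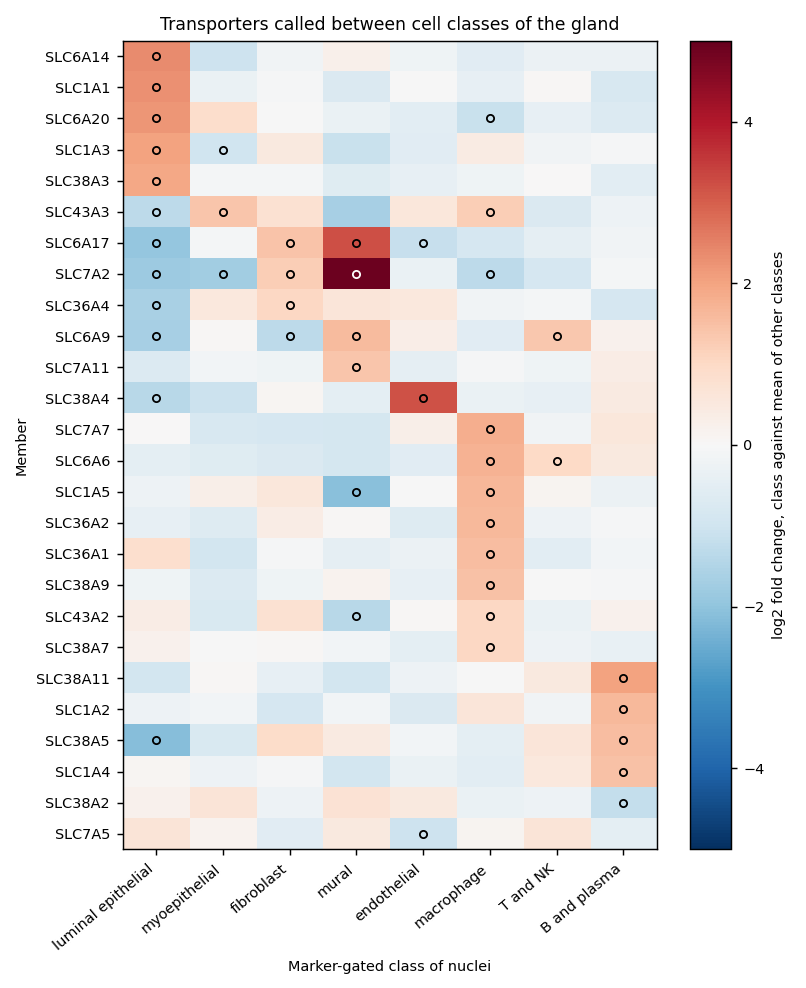
Log2 fold change (colour) of each called member (rows) in each class of nuclei (columns) against the mean of the other classes, from edgeR's quasi-likelihood fit, with circles on the calls. The darkest cell is SLC7A2 in mural nuclei at 4.90, 5 members are circled red in the luminal column and 9 in the macrophage column.

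The depth behind the classes differed. Luminal nuclei numbered 68460, with a median of 1695 to 3777 UMIs per nucleus over the glands, against 367 B and plasma nuclei and 318 mural nuclei in the sums. Of the nuclei of a class, 89.6% of the B and plasma, 57.7% of the myoepithelial and 50.9% of the mural ones held no more than the required 2 markers, against 18.4% of the luminal ones. Free RNA was read from the caseins and LALBA, milk protein genes of luminal cells. Their share of UMIs in the other classes was 7.28% (mural) to 36.9% (B and plasma) of that in luminal nuclei of the same gland as medians, and up to 142% in 1 sum. For the 5 members called higher in luminal nuclei, the median CPM of another class was 0 to 45.9% of the median luminal CPM. This is a ratio of 2 medians over glands, unlike the same-gland ratio used for the caseins and LALBA. SLC6A14, for example, stood at 14.0% by this ratio in macrophage and 30.2% in T and NK nuclei, and SLC1A1 at 16.5 and 32.6%. The part of free RNA in the levels outside luminal nuclei was not tested.

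Among the glutamate and aspartate carriers, luminal epithelial nuclei were high in SLC1A1 and SLC1A3, and B and plasma nuclei in SLC1A2. For SLC1A1 (EAAT3), the mean of the other classes had a median of 13.05 CPM. In luminal nuclei SLC1A1 stood at 20.2, 70.05 and 285 CPM as the lowest, median and highest of 10 glands. It was above every other class in 10 of 10 glands, with a log2 fold change of 2.28 (SE 0.17, edgeR quasi-likelihood, Benjamini-Hochberg adjusted p = 4.37e-19). SLC1A3 (EAAT1) stood at 55.4, 157 and 245 CPM against 44.3 CPM. It was above the mean of the others in 10 of 10 glands, with a log2 fold change of 2.02 (SE 0.17, edgeR adjusted p = 5.71e-17). Both calls held in each fit without 1 library and in 8 of 8 other settings. Myoepithelial nuclei were lower in SLC1A3, with 9.44, 20.3 and 55.5 CPM and a log2 fold change of -1.01 that lay at the limit. This call was lost without G90 replicate 2 (-0.95), L0 replicate 1 (-0.98), L20 replicate 2 (-0.75), PI2 replicate 2 (-0.99) or PI7 replicate 1 (-0.93).

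SLC1A2 (EAAT2), best known as the carrier that clears glutamate in brain, was higher in B and plasma nuclei. It stood at 68.5, 180 and 275 CPM as the lowest, median and highest of 6 glands, against 37.1 CPM, and lay above every other class in 6 of 6 glands. The sums are small, from 2 to 44 UMIs of SLC1A2 per gland. Its log2 fold change was 1.63 (SE 0.29, edgeR adjusted p = 7.94e-05), and the call held in each fit without 1 library. SLC1A6 and SLC1A7, the remaining carriers of this group, had medians of 0.226 and 1.31 CPM in the whole glands and did not pass the filter.

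The neutral exchangers of SLC1 had calls outside luminal nuclei. SLC1A5 (ASCT2), a glutamine exchanger, was higher in macrophage nuclei, at 34.7, 62.3 and 148 CPM against a median of 24.6 CPM over the others. It was above them in 10 of 10 glands, with a log2 fold change of 1.67 (SE 0.19, edgeR adjusted p = 1.15e-11). In mural nuclei SLC1A5 had 0 UMIs in G90 replicate 1 and PI7 replicate 2, 1 UMI in L20 replicate 2 and PI2 replicate 1, and 2 in PI7 replicate 1. It was called lower there at a log2 fold change of -2.09, and not without PI7 replicate 2 (-1.60). SLC1A4 (ASCT1) was called higher in B and plasma nuclei, at 0, 28.6 and 67.5 CPM against 9.67 CPM, with a log2 fold change of 1.48. That call was lost without G90 replicate 1 (1.35), L20 replicate 2 (1.11), PI2 replicate 2 (1.47) or PI7 replicate 1 (1.71).

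Of the SLC6 members, 5 had calls, in luminal, mural, fibroblast, endothelial and immune nuclei. SLC6A14 (ATB0,+), which carries neutral and cationic amino acids with sodium and chloride, stood at 10.9, 68.9 and 302 CPM in luminal nuclei against a median of 12.5 CPM over the others. It was above the others in 10 of 10 glands, with a log2 fold change of 2.36 (SE 0.20, edgeR adjusted p = 9.56e-17). SLC6A20, a carrier of proline and other imino acids, stood at 42.4, 88.2 and 1231 CPM against 24.8 CPM. It was above the mean of the others in 10 of 10 glands too, with a log2 fold change of 2.20 (SE 0.18, edgeR adjusted p = 3.14e-17). In L20 replicate 2, though, SLC6A20 stood at 81.97 CPM in myoepithelial nuclei (exact Poisson 95% interval 42.4 to 143) and at 67.9 CPM in luminal nuclei. Neither luminal call was lost in any setting run. SLC6A20 was lower in macrophage nuclei at 5.04, 14.9 and 118 CPM (log2 fold change -1.09), a call lost without G90 replicate 1 (-0.997) or PI7 replicate 1 (-0.95).

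SLC6A17, which carries neutral amino acids into vesicles, and SLC6A9 (GLYT1), a glycine carrier, were low in luminal nuclei and high in mural nuclei. SLC6A17 stood at 131.8 CPM in mural nuclei of G90 replicate 1, 22.1 in L20 replicate 2, 106 in PI2 replicate 1, and 42.9 and 114 in PI7 replicates 1 and 2. These levels rest on 2 to 18 UMIs each and lay above every other class in 5 of 5 glands (log2 fold change 3.24, SE 0.45, edgeR adjusted p = 2.81e-08). In luminal nuclei SLC6A17 stood at 0.996, 2.19 and 6.54 CPM, below the others in 10 of 10 glands (-1.93), a call lost without PI7 replicate 1 (-0.79). Fibroblast nuclei were higher at 0, 21.9 and 42.2 CPM (log2 fold change 1.44). Endothelial nuclei were called lower (-1.14), but not without G90 replicate 1 (-0.9995), and without PI7 replicate 1 the value was 0.07.

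SLC6A9 stood at 1.65, 5.93 and 15.4 CPM in luminal nuclei, below the others' median of 26.4 CPM and below them in 10 of 10 glands (log2 fold change -1.65, SE 0.26, edgeR adjusted p = 1.18e-07). It was lower in fibroblast nuclei as well (-1.29). T and NK nuclei were higher at 25.2, 43.5 and 94.5 CPM, above the others in 8 of 10 glands (1.34, SE 0.28, edgeR adjusted p = 7.27e-05). In mural nuclei SLC6A9 stood at 43.9, 66.45, 91.3, 75.1 and 25.3 CPM in G90 replicate 1, L20 replicate 2, PI2 replicate 1 and PI7 replicates 1 and 2 (1.60). The mural sums held 45539 to 186524 UMIs of all genes, so these levels rest on few UMIs of SLC6A9. The mural call was lost without L20 replicate 2 (1.52), PI2 replicate 1 (1.43) or PI7 replicate 1 (1.44).

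SLC6A6, the taurine carrier, was higher in macrophage nuclei, with 0, 72.8 and 164 CPM against 25.2 CPM (log2 fold change 1.74, SE 0.21, edgeR adjusted p = 1.05e-10). It exceeded the others in 9 of 10 glands. In T and NK nuclei it was called at the limit (1.02), with 9.45, 42.6 and 78.9 CPM. That call was lost without G90 replicate 1 (0.99), G90 replicate 2 (0.89), L0 replicate 1 (0.97), L0 replicate 2 (0.96), PI2 replicate 1 (0.91) or PI7 replicate 2 (0.97).

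SLC7A2 (CAT2), a carrier of arginine, lysine and ornithine, showed the largest difference of any member between classes. In mural nuclei it stood at 242 CPM in G90 replicate 1, 1119 in L20 replicate 2, 411 in PI2 replicate 1, and 547 and 494 in PI7 replicates 1 and 2, from 11 to 102 UMIs. The mean of the other classes had a median of 16.0 CPM over all 10 glands. The mural level lay above each class in 5 of 5 glands (log2 fold change 4.90, SE 0.24, edgeR adjusted p = 1.49e-28). Over all glands 35.4% of mural nuclei held an SLC7A2 UMI, against 1.26% of luminal nuclei, although luminal nuclei were deeper. SLC7A2 was lower in luminal nuclei at 2.40, 5.16 and 13.4 CPM (-1.81), below the others in 10 of 10 glands, and also in macrophage (-1.31) and myoepithelial nuclei (-1.75). The luminal and macrophage calls were lost with at least 3 markers per nucleus (-0.96 and -0.30), a gate that left no mural class. Fibroblast nuclei stood between, at 15.1, 45.3 and 96.4 CPM (1.21, SE 0.21, edgeR adjusted p = 3.38e-06). The plain mean of the other classes, which includes the mural sums where present, was below the fibroblast level in 6 of 10 glands. SLC7A1 (CAT1) passed the filter and had no call.

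**Figure D2:**
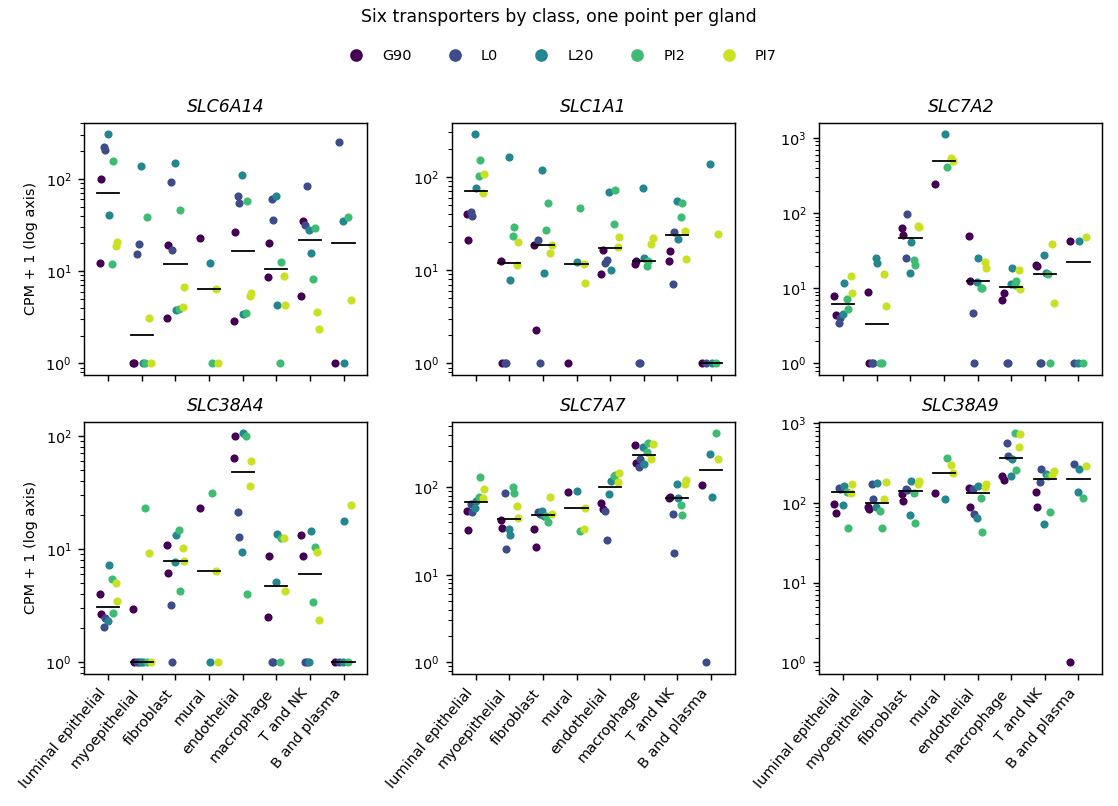
CPM + 1 (vertical log axis) of 6 members in each class of nuclei (horizontal axis), with a point per gland coloured by stage and a bar at the median of the glands. SLC1A1 lies highest in luminal nuclei, SLC7A2 in mural nuclei at a median of 494 CPM, SLC38A4 in endothelial nuclei, and SLC7A7 and SLC38A9 in macrophage nuclei.

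Of the light chains, SLC7A7 (y+LAT1), which exports cationic in exchange for neutral amino acids, was highest in macrophage nuclei. It stood at 167, 232 and 318 CPM there against a median of 72.8 CPM over the others, and exceeded every other class in 9 of 10 glands (log2 fold change 1.82, SE 0.15, edgeR adjusted p = 9.79e-17). SLC7A7 is among the macrophage markers in the study's own list but had no part in the gate used here. SLC7A11 (xCT), which exchanges cystine for glutamate, was called higher in mural nuclei at 0 CPM in G90 replicate 1, 144 in L20 replicate 2, 30.4 in PI2 replicate 1, and 80.4 and 37.98 in PI7 replicates 1 and 2 (1.39). The call was lost without L20 replicate 2 (1.1) or PI7 replicate 1 (1.36). SLC7A5 (LAT1), a carrier of large neutral amino acids, was called lower in endothelial nuclei at 0, 5.19 and 8.34 CPM (-1.03). That call was lost without L0 replicate 1 (-0.71), L0 replicate 2 (-0.98), PI2 replicate 1 (-0.93) or PI7 replicate 2 (-0.86), and the value was 0.15 with stricter limits on nuclei. SLC7A8 (LAT2) and both heavy chains, SLC3A1 and SLC3A2, passed the filter without a call in any class.

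Of the proton-coupled carriers, SLC36A1 and SLC36A2 were called higher in macrophage nuclei. SLC36A1 (PAT1), which exports small amino acids from lysosomes, stood at 104, 160.8 and 265 CPM in macrophage nuclei against 65.97 CPM, above the others in 10 of 10 glands (log2 fold change 1.55, SE 0.16, edgeR adjusted p = 7.88e-13). SLC36A2 (PAT2) stood at 0, 48.2 and 131 CPM against 18.1 CPM, above the others in 9 of 10 glands (1.62, SE 0.27, edgeR adjusted p = 7.75e-07). SLC36A4 (PAT4) was lower in luminal nuclei at 4.76, 14.5 and 50.7 CPM, below the others in 10 of 10 glands (-1.63, SE 0.20, edgeR adjusted p = 2.04e-10). In fibroblast nuclei it was called at the limit (1.05, with 25.5, 88.6 and 112 CPM), and lost the call without G90 replicate 2 (0.97), L20 replicate 2 (0.98), PI2 replicate 1 (0.95) or PI2 replicate 2 (0.93).

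SLC38 members were called in luminal, endothelial, macrophage and B and plasma nuclei. SLC38A3 (SNAT3), which carries glutamine in either direction, stood at 7.16, 50.7 and 115 CPM in luminal nuclei against 14.3 CPM, above the others in 9 of 10 glands (log2 fold change 1.93, SE 0.19, edgeR adjusted p = 4.55e-14). SLC38A4 (SNAT4) was the sole member called higher in endothelial nuclei, at 3.01, 47.1 and 105 CPM against 4.38 CPM. It exceeded every other class in 9 of 10 glands (3.18, SE 0.23, edgeR adjusted p = 4.60e-20). The exception was PI2 replicate 2, with 1 UMI of SLC38A4 in the endothelial sum. SLC38A4 was lower in luminal nuclei (1.06, 2.08 and 6.23 CPM, -1.41), as was SLC38A5 (SNAT5) at 0.797, 1.43 and 3.90 CPM (-2.14), both below the others in 10 of 10 glands.

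Among the lysosomal members, SLC38A9, which senses arginine for the kinase complex mTORC1, stood at 193, 368 and 746 CPM in macrophage nuclei against 161 CPM. It lay above every other class in 10 of 10 glands (log2 fold change 1.45, SE 0.13, edgeR adjusted p = 3.43e-15). SLC38A7, a lysosomal glutamine exporter, stood at 17.4, 41.1 and 106 CPM against 23.1 CPM, above the others in 10 of 10 glands but near the limit of the fold (1.02). It lost the call without PI2 replicate 1 (0.88) or PI7 replicate 2 (0.99). SLC38A11, whose substrate is not settled, was higher in B and plasma nuclei at 63.2 CPM in G90 replicate 1, 171 and 67.5 in L20 replicates 1 and 2, 43.01 in PI7 replicate 1 and 0 in L0 replicate 1 and PI2 replicate 2 (1.99, SE 0.46, edgeR adjusted p = 0.00238). The B and plasma sums held 26618 to 255760 UMIs of all genes, so these levels rest on few UMIs of SLC38A11. SLC38A5 was called higher there (1.55) but not without G90 replicate 2 (1.54), L0 replicate 2 (1.52) or PI2 replicate 2 (0.83). SLC38A2 was called lower (-1.195) but not without L20 replicate 2 (-0.92).

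SLC43A3 was lower in luminal nuclei at 1.31, 9.38 and 15.0 CPM, below the others in 10 of 10 glands (log2 fold change -1.33, SE 0.24, edgeR adjusted p = 2.28e-06). It was higher in myoepithelial (0, 41.6 and 113 CPM, 1.39) and macrophage nuclei (7.71, 43.5 and 68.9 CPM, 1.21). SLC43A2 (LAT4) was called in macrophage nuclei at the limit (1.02), with 80.98, 124 and 236 CPM, and lost the call without G90 replicate 1 (0.97), L0 replicate 1 (0.97) or PI2 replicate 1 (0.98). Mural nuclei were lower in SLC43A2 (-1.38), on few UMIs. SLC43A2 stood there at 22.0, 55.4 and 0 CPM in G90 replicate 1, L20 replicate 2 and PI2 replicate 1. In PI7 replicates 1 and 2 it stood at 32.2 and 31.6 CPM.

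Some calls that no single library carried were lost in another setting. With at least 3 markers per nucleus, a gate that left no mural class, SLC7A2 was at -0.96 in luminal and -0.30 in macrophage nuclei, and SLC43A3 at 0.95 in macrophage and 0.87 in myoepithelial nuclei. With nuclei that held no marker of another class, SLC38A9 was at 0.98 in macrophage nuclei. Without the filter on low counts, SLC38A4 was at -0.92 and SLC43A3 at -0.84 in luminal nuclei. Calls lost without 1 library could be lost in other settings too, and not all of these losses are listed. With nuclei that held no marker of another class, SLC6A20 was at -0.26 and SLC43A2 at 0.20 in macrophage nuclei. With DESeq2, the calls of SLC38A2 in B and plasma nuclei (-0.82) and SLC1A5 in mural nuclei (-1.92) were lost.

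Adipocyte nuclei could be described in 1 gland. L20 replicate 2 was the sole gland with 20 or more of them, while the other 9 glands had at most 15, so no test was made. SLC1A3 stood at 1603 CPM in these nuclei (exact Poisson 95% interval 1536 to 1672, counting error only), against 205 CPM in macrophage nuclei, the next class of that gland. SLC36A2 stood at 182 CPM (160.1 to 206) against 50.1 CPM. These were the 2 members above the intervals of every other class. Pooled over the glands, 82.0% of adipocyte nuclei held an SLC1A3 UMI, against 29.1% of luminal and 3.12% of mural nuclei. L20 replicate 2 gave 317 of these adipocyte nuclei. Their median of 3960 UMIs exceeded that of the luminal (3777) and mural nuclei (2159.5) of that gland, and such a share rises with depth. SLC6A14, by contrast, had 1 UMI in the adipocyte nuclei of that gland.

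Stages were compared in the summed nuclei of the whole gland (54 members passed the filter) and in the luminal nuclei (53 members). In the whole gland, fewer nuclei of a class and less RNA per nucleus cannot be told apart. The luminal gate pools kinds of luminal nuclei, so a change in their mix cannot be told apart from a change per nucleus there. With 2 sows per stage, edgeR's quasi-likelihood test called 0 members in each of the 10 comparisons, with an adjusted p limit of 0.05 and a fold of over 2. In simulated counts this test recovered 0 of 199 genes changed by a log2 fold of 2 from G90 to L0 in the whole gland. The 0 calls thus do not show that members were unchanged. Over all genes the share called was 0% in the adjacent comparisons of the whole gland and 0.842% for L0 against the mean of the 4 other stages. In luminal nuclei it was 0.00503% from G90 to L0, 0% in the other adjacent comparisons, and 1.98% for L0 against the others.

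At an unadjusted p under 0.05, edgeR gave 3, 10, 3 and 1 members in the whole gland from G90 to L0, L0 to L20, L20 to PI2 and PI2 to PI7, and 10 for L0 against the others. The shares of all genes were 7.28, 12.8, 3.6, 2.04 and 14.3%. In luminal nuclei there were 7, 10, 0 and 1 members, and 11 for L0 against the others, where 11.5, 12.9, 3.27, 2.76 and 17.4% of all genes passed. DESeq2 called 2, 5, 0, 0 and 4 members in the whole gland (1.73, 5.1, 0.0749, 0.0573 and 6.52% of all genes) and 3, 3, 0, 0 and 5 in luminal nuclei (4.25, 4.82, 0.0403, 0.181 and 8.22%). The median log2 fold change of the members in luminal nuclei was -0.28 from G90 to L0 (all genes -0.08) and 0.25 in the step to L20 (0.04). It was -0.20 in the step to PI2 (0.10) and -0.12 in the step to PI7 (-0.05). The values below are thus descriptions, and DESeq2 calls are named as such. The DESeq2 counts are small and, in luminal nuclei, near the shares of all genes. They are not read as a result about the members.

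From G90 to L0, luminal nuclei differed most in SLC6A3, SLC7A4 and SLC36A1. SLC6A3, the dopamine carrier, stood at 16.6 and 2.71 CPM at G90 and at 0.488 and 0.0569 CPM at L0, with a log2 fold change of -4.55 (SE 1.16, edgeR adjusted p = 0.148). SLC7A4, a member of the cationic branch with no settled substrate, stood at 0.341 and 0.164 CPM and then 3.42 and 2.73 CPM (4.02, SE 0.98, edgeR adjusted p = 0.135). SLC36A1 stood at 20.6 and 29.3 CPM and then 118 and 97.0 CPM (2.43, SE 0.62, edgeR adjusted p = 0.149). DESeq2 called the 3 at log2 fold changes of -4.62, 4.04 and 2.41. They were picked for the size of their differences, so the gap between the glands of the 2 stages is no separate result. The whole gland showed the same 3 members first, at -4.11, 3.91 and 2.30, of which DESeq2 called SLC6A3 and SLC7A4.

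From L0 to L20, SLC38A3 stood at 60.7 and 78.9 CPM at L0 and at 13.8 and 22.9 CPM at L20 in luminal nuclei (log2 fold change -2.39, SE 0.89, edgeR adjusted p = 0.292). SLC43A3 stood at 1.67 and 1.31 CPM and then 10.2 and 9.51 CPM (2.34, SE 0.65, edgeR adjusted p = 0.193). SLC6A20 stood at 309 and 125 CPM and then 47.6 and 67.9 CPM (-2.33, SE 0.99, edgeR adjusted p = 0.358). These 3 too were picked for the size of their differences in that comparison. DESeq2 called SLC43A3 (2.38), SLC6A9 (2.26) and SLC1A5 (-1.67) in luminal nuclei. SLC1A5 stood at 29.1 and 28.5 CPM at L0 and at 10.2 and 13.7 CPM at L20. In the whole gland SLC6A20 (-3.07), SLC38A3 (-2.91) and SLC6A3 (2.60) ranked first, and DESeq2 called SLC6A20, SLC38A3, SLC43A3, SLC6A6 (2.15) and SLC6A9 (2.00).

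**Figure D3:**
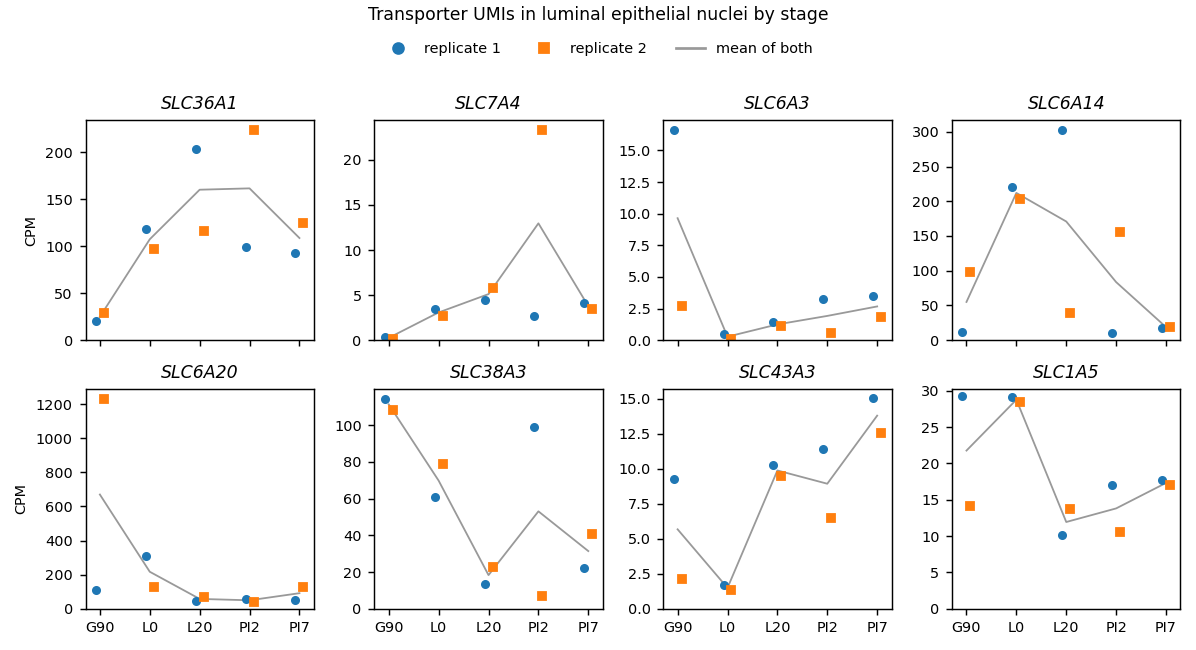
CPM (vertical axes from 0) of 8 members in luminal epithelial nuclei at the 5 stages (horizontal axis), with circles for replicate 1, squares for replicate 2 and a line through the means. SLC36A1 lies at 20.6 and 29.3 CPM at G90 and at 92.4 CPM or above later, while the PI2 glands are far apart in SLC7A4, SLC6A14 and SLC38A3.

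In the involution comparisons, sows of the same stage lay far apart in several members. SLC6A14 stood at 302 and 39.3 CPM in the luminal nuclei of the L20 glands, at 10.9 and 156 CPM at PI2 and at 17.9 and 19.6 CPM at PI7. SLC38A3 stood at 98.95 and 7.16 CPM at PI2, and SLC7A4 at 2.66 and 23.3 CPM. From L20 to PI2 SLC1A6, a glutamate carrier, had a log2 fold change of -1.67 in luminal nuclei on 3 to 8 UMIs a gland, at 0.531 and 0.935 CPM and then 0.181 and 0.215 CPM. SLC38A3 was at 1.63, and the edgeR adjusted p was 0.934 for both. Without PI2 replicate 1, SLC38A3 was at -1.05. From PI2 to PI7 the largest luminal differences were those of SLC6A14 (-2.49), SLC7A4 (-2.12) and SLC36A2 (-1.70), each with an edgeR adjusted p of 0.9997. All 3 turned without PI2 replicate 2, to 0.67, 0.40 and 0.62.

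In the whole gland, SLC7A4 (2.46), SLC38A3 (1.95) and SLC7A10 (-1.82), a carrier of small neutral amino acids, ranked first from L20 to PI2, with an edgeR adjusted p of 0.825. SLC7A4 was at -0.20 without PI2 replicate 2, and SLC38A3 at -0.44 without PI2 replicate 1. From PI2 to PI7 SLC6A14 (-3.02), SLC7A4 (-2.79) and SLC1A6 (1.68) ranked first, and SLC6A14 was at 0.36 without PI2 replicate 2.

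Against the mean of the 4 other stages, the L0 glands were lowest in SLC43A3 in luminal nuclei, at 1.67 and 1.31 CPM against 2.09 to 15.0 CPM elsewhere (log2 fold change -2.18, SE 0.57, edgeR adjusted p = 0.0861, DESeq2 called). SLC6A3 was at -2.85 (edgeR adjusted p = 0.176, DESeq2 called) and SLC6A14 at 2.06 (edgeR adjusted p = 0.283). DESeq2 also called SLC1A5 (1.29), SLC3A1 (1.37) and SLC1A3 (1.24) in luminal nuclei. The L0 glands overlapped those of G90 in SLC1A3 (245 and 239 against 236 and 243 CPM) and in SLC1A5 (29.1 and 28.45 against 29.3 and 14.2 CPM). SLC3A1, the heavy chain of the cystine carrier, stood at 30.6 and 38.2 CPM at L0. The other 8 glands lay at 11.6 to 23.6 CPM. In the whole gland SLC6A3 (-3.05), SLC6A14 (2.25) and SLC43A3 (-2.12) ranked first. DESeq2 called SLC6A3, SLC43A3, SLC6A9 (-1.59) and SLC1A3 (1.44) there.

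Of the carriers of large neutral amino acids, SLC7A5 was lowest in the 2 L0 glands in luminal nuclei. The share of all genes lowest there was not counted. SLC7A5 stood at 20.6 and 8.44 CPM in the G90 glands, 4.51 and 5.41 in those of L0 and 25.7 and 17.4 in those of L20, followed by 8.09 and 20.3 (PI2) and 21.7 and 8.10 CPM (PI7). Its heavy chain SLC3A2 stood at 125 and 52.5 CPM in the G90 glands, 53.2 and 58.8 in those of L0 and 94.9 and 51.9 in those of L20, followed by 98.8 and 156 (PI2) and 70.06 and 91.8 CPM (PI7). SLC7A8 stood at 27.8 and 89.6 CPM in the G90 glands and at 65.1 and 60.8 CPM in those of L0, the latter above the 16.1 to 37.7 CPM of the later stages. SLC38A2 varied less, from 139 to 350.5 CPM, SLC7A11 ranged from 4.78 to 35.7 CPM, SLC7A7 from 31.4 to 131.5 CPM and SLC43A1 from 0.302 to 3.003 CPM.

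The sections, in which each spot can hold several cells, were compared without a test, since each stage had 1. Over at least 10 UMIs in both together, 40 members were counted. Of these, 15 were over 2-fold higher at PI2 and 11 over 2-fold lower, against 14.5 and 16.5% of all genes, and the median log2 ratio was -0.11 for the members and for all genes alike. SLC43A2 stood at 50.8 CPM at G90 and 149 CPM at PI2 (ratio 2.93, exact interval 2.76 to 3.10, counting error only). SLC3A2 stood at 32.96 and 93.8 CPM (2.85, 2.65 to 3.06), whereas its light chain SLC7A5 stood at 74.0 and 12.3 CPM (0.166, 0.144 to 0.190). SLC1A5 stood at 130.2 and 52.3 CPM (0.402) and SLC38A3 at 172 and 80.2 CPM (0.466).

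Other members higher at PI2 were SLC38A7 (3.84), SLC38A5 (3.31), SLC36A1 (2.91), SLC6A17 (2.55), SLC7A7 (2.35), SLC43A3 (2.23), SLC6A6 (2.16) and SLC1A1 (2.01). SLC7A4 stood at 1.94 CPM at G90 and 11.6 CPM at PI2 (5.99, 4.62 to 7.83). SLC6A2, the noradrenaline carrier (6.18, 3.08 to 13.2), SLC36A2 (5.58, 1.27 to 33.4), SLC6A15 (3.19, 1.23 to 8.57) and SLC6A12 (2.52, 1.25 to 5.10) rest on few UMIs. Lower at PI2 were SLC6A14 (0.110, 0.0561 to 0.195), SLC38A4 (0.196), SLC6A3 (0.217), SLC1A3 (0.282), SLC7A10 (0.378), SLC6A20 (0.403) and SLC7A1 (0.440). SLC6A11, a GABA carrier, had 23 UMIs at G90 and 0 at PI2, and was at least 3.21-fold lower with a floor of 3 UMIs.

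**Figure D4:**
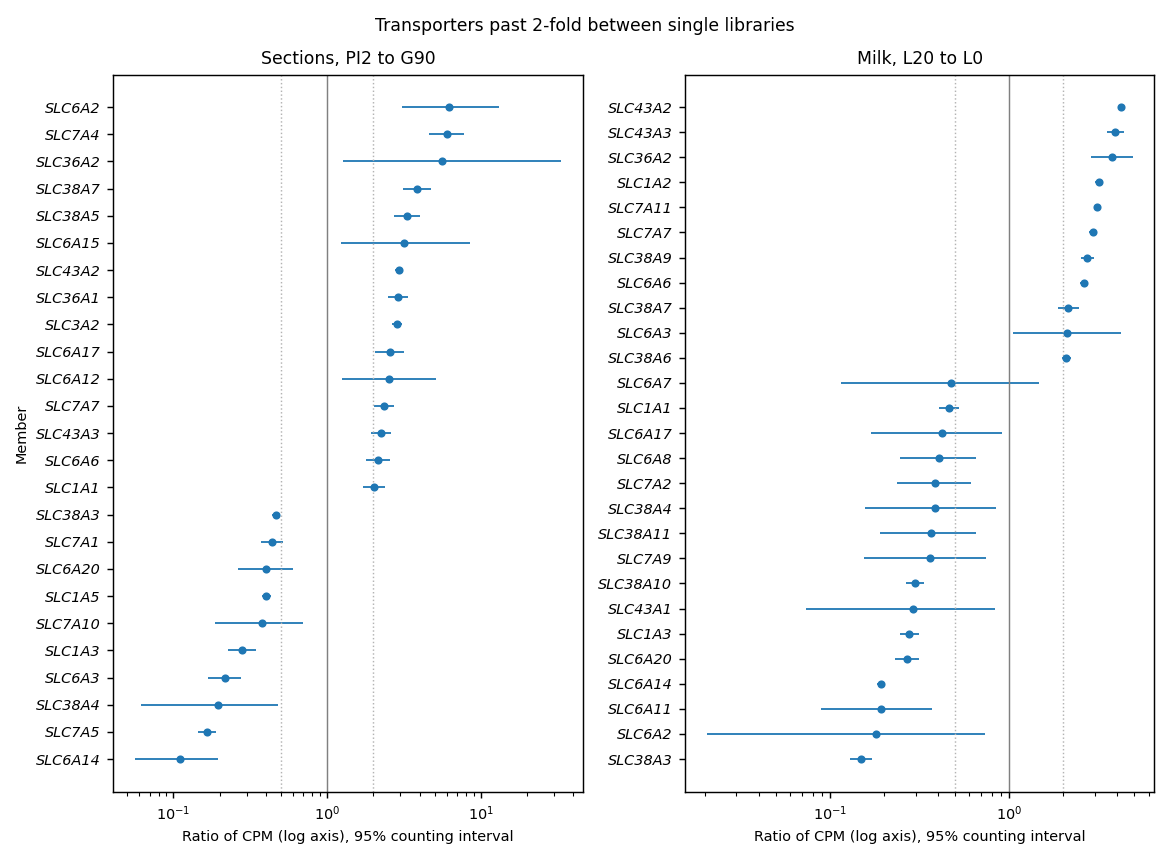
Ratio of CPM (horizontal log axes) of the members named as past 2-fold between the sections (left, PI2 to G90) and between the milk libraries (right, L20 to L0), with exact 95% counting intervals and dotted lines at 2-fold. SLC6A11 in the sections and SLC6A5 in milk had 0 UMIs in the second library and are left out. SLC6A14 lies at 0.110 in the sections and 0.192 in milk.

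Within a section, the 25% of spots richest in luminal markers were set beside the 25% poorest in them. Intervals of the ratio lay above 1 for 46.2% of all genes at G90 and 21.8% at PI2, and below 1 for 8.26 and 16.3%, and for 9 and 5 of 34 countable members at G90 and 7 and 5 of 28 at PI2. Of the 5 members higher in luminal nuclei, 0 of 5 lay above 1 at G90 (median ratio 1.199, all genes 1.24) and 2 of the 4 countable ones did at PI2 (1.82, all genes 1.06). These were SLC1A1, with 9.10 CPM in the poorest and 25.3 CPM in the richest spots (2.78, 1.71 to 4.76), and SLC38A3 with 44.5 and 76.0 CPM (1.71, 1.36 to 2.16). Of the 7 members lower in luminal nuclei, 3 of 7 lay below 1 at G90 (median 0.689) and 4 of 6 at PI2 (0.484). SLC7A2 was at 0.547 and 0.357, SLC38A4 at 0.243 at G90 and SLC36A4 at 0.275 at PI2. Over all countable members the medians were 1.12 and 0.957. SLC6A3 was higher in the marker-rich spots at G90 (2.81, 2.20 to 3.62), as were SLC7A4 at PI2 (3.65, 1.83 to 8.27) and SLC7A5 in both sections (1.304 and 2.14).

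Levels in sections and nuclei differed for some members, side by side and with other kits and RNA. SLC6A8, the creatine carrier, stood at 82.6 and 72.4 CPM in the sections but at 2.00 to 9.33 CPM in the nuclei of the 10 glands. SLC38A10 stood at 240.3 and 214 CPM against 23.5 to 74.3 CPM. SLC6A20, the reverse, stood at 4.16 CPM in the G90 section and at 86.9 and 1166 CPM in the nuclei of the G90 glands, and SLC1A3 at 20.6 CPM against 186 and 233 CPM. Sections and nuclei differ in method and RNA fraction together, which cannot be told apart, and the labels do not say whether they share a sow.

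In milk, 50 members were counted, of which 11 were over 2-fold higher at L20 than at L0 and 18 over 2-fold lower, against 13.9 and 24.7% of all genes. The median log2 ratio was -0.22 for the members and -0.15 for all genes. The libraries differed in the classes the gate gave. Of all kept cells, 17.6% were luminal at L0 and 7.81% at L20, 49.0 and 29.99% granulocytes, and 3.61 and 10.6% macrophages. T and NK cells made up 2.07 and 8.41%. Many cells fell in no class, so these shares need not be those of the cell types held. Of the granulocytes, 3469 of 8604 at L0 and 2964 of 4353 at L20 held no more than the required 2 markers. Luminal cells had a median of 16870.5 UMIs at L0 and 2845 at L20. The ratio of a whole library mixes these shares with levels inside a class, so some were also read inside the classes.

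Higher at L20 in whole milk were SLC43A2 (30.3 and 128 CPM, ratio 4.23, exact interval 4.03 to 4.44), SLC43A3 (3.91), SLC36A2 (3.73), SLC1A2 (3.17), SLC7A11 (47.1 and 146 CPM, 3.10, 2.97 to 3.23), SLC7A7 (2.92), SLC38A9 (2.73), SLC6A6 (2.60), SLC38A7 (2.14), SLC6A3 (2.10, 1.05 to 4.20) and SLC38A6 (2.09). Within granulocytes SLC43A2 stood at 67.9 and 197 CPM (2.91, 2.66 to 3.18) and SLC1A2 at 59.1 and 135 CPM (2.28, 2.06 to 2.52). SLC7A11 stood at 174 and 345 CPM in granulocytes (1.98, 1.86 to 2.10), at 37.4 and 24.6 CPM in macrophages and at 12.04 and 12.3 CPM in luminal cells. SLC43A3 was not higher inside any of the 3 classes, at 0.99 in macrophages (0.84 to 1.17), 0.825 in granulocytes (0.593 to 1.13) and 0.728 in luminal cells (0.28 to 1.60). SLC36A2 was at 1.88 in macrophages (1.02 to 3.78), 0.628 in granulocytes and 2.97 in luminal cells, on 7 to 82 UMIs a class. Macrophages had 56.2 and 117 CPM of SLC1A2 (2.07) and 106 and 199 CPM of SLC7A7 (1.88).

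**Figure D5:**
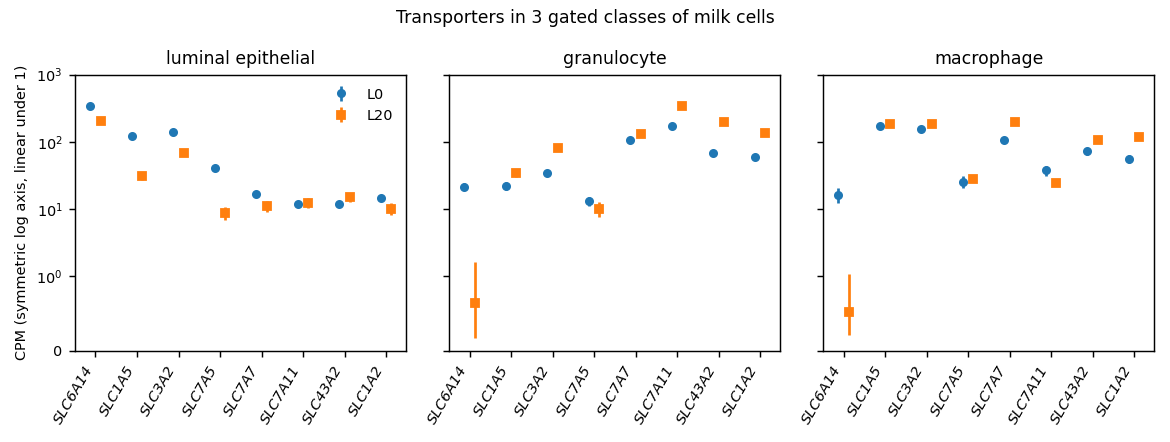
CPM (vertical axis, symmetric log with a linear part under 1) of 8 members in luminal cells, granulocytes and macrophages of milk, circles for L0 and squares for L20, with exact 95% counting intervals. SLC6A14, SLC1A5, SLC3A2 and SLC7A5 are lower at L20 in luminal cells, and SLC7A11, SLC43A2 and SLC1A2 are higher at L20 in granulocytes.

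Lower at L20 were SLC38A3 (32.6 and 4.84 CPM, ratio 0.149, 0.128 to 0.171), SLC6A14 (243 and 46.8 CPM, 0.192, 0.184 to 0.201), SLC6A20 (0.269), SLC1A3 (0.277), SLC38A10 (0.297) and SLC1A1 (0.459). Inside luminal cells the difference was smaller for SLC6A14, at 335 and 204 CPM (0.609, 0.581 to 0.638), for SLC38A3, at 44.8 and 20.8 CPM (0.465), for SLC1A3 (0.565) and for SLC6A20 (0.707). SLC1A1 turned to 20.1 and 24.5 CPM there (1.22, 1.05 to 1.40), and SLC38A10 was at 33.3 and 8.09 CPM (0.243). Some carriers that were within 2-fold in whole milk were past it in luminal cells. SLC7A5 stood at 41.1 and 8.61 CPM (0.209, 0.166 to 0.261), SLC1A5 at 122 and 30.6 CPM (0.250, 0.221 to 0.281), SLC7A8 at 15.6 and 5.29 CPM (0.340) and SLC3A2 at 139.7 and 67.3 CPM (0.481). In granulocytes SLC3A2 stood at 33.8 and 82.2 CPM (2.43, 2.13 to 2.77).

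SLC6A14 stood at 21.5 CPM in granulocytes at L0 and at 0.644 CPM at L20, while caseins and LALBA took 0.955 and 0.206% of the UMIs of granulocytes and 22.3 and 26.4% of those of luminal cells. The part of free RNA or of doublets in the granulocyte levels was not tested. Other members over 2-fold lower at L20 were SLC6A2 (0.180), SLC6A11 (0.192), SLC43A1 (0.290), SLC7A9 (0.361), SLC38A11 (0.367), SLC38A4 (0.387), SLC7A2 (0.387), SLC6A8 (0.407), SLC6A17 (0.419) and SLC6A7 (0.471). These ratios rest on few UMIs at L20, from 2 for SLC6A2 to 23 for SLC7A2. For SLC6A7, with 16 and 4 UMIs, the interval of 0.115 to 1.46 included 1. SLC6A5, a glycine carrier, had 26 UMIs at L0 and 0 at L20, at least 4.60-fold lower with a floor of 3 UMIs.

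The windows of 250 bases before the annotated gene starts were searched on both strands for 2 letter patterns, TGATGNAA, as in amino acid response elements, and TTCNNNGAA, as bound by STAT factors. In RefSeq's Sscrofa11.1 genome 2.6% of 20664 windows held the first and 6.38% the second. Among the 55 members with a window, SLC7A11 held the first and SLC1A2 the second, and 0 of the 5 luminal-high members held either. The window of SLC7A11, which was among the most counted members in milk granulocytes, is printed with the matches in capitals, 46 and 27 bases before the start. It stands beside that of SLC6A14, high in luminal nuclei and milk cells and without a match. Such a match is a description of letters and not a site.
SLC7A11, chr8:88607833-88608082, plus strand: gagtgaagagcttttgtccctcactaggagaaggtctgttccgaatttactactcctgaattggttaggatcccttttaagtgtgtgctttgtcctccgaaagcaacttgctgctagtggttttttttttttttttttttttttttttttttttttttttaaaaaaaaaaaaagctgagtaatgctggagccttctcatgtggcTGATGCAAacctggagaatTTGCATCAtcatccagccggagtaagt
SLC6A14, chrX:95482244-95482493, plus strand: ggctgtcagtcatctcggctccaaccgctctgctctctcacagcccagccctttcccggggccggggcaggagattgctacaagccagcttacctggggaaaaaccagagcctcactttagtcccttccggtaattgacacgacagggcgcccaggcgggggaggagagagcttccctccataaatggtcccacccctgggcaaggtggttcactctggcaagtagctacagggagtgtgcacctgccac

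Other genes of amino acid handling were read in the same fits from 5 lists. Their calls stand beside the share of all genes called, which was 11.1% higher and 14% lower in luminal, 9.64 and 8.19% in macrophage, 9.44% higher in fibroblast and 7.67% higher in myoepithelial nuclei. The lists hold 12 to 20 tested genes, so 1 call moves a list's share much, and no list was tested against those shares. Of 20 genes of the amino acid response and of serine, asparagine and proline synthesis, 17 were tested between classes. In luminal nuclei 3 of 17 were higher: GPT2, an alanine aminotransferase (log2 fold change 1.06), and the stress genes ATF5 (1.39) and TRIB3 (1.05), with a list median of 0.40 against 0.22 over all genes. In myoepithelial nuclei PSAT1 (3.36), GPT2 (1.76) and PSPH (1.29), and in fibroblast nuclei PYCR1 (2.32), PSAT1 (1.42) and NUPR1 (1.06) were higher, 3 of 17 in each, with list medians of 0.37 (all genes -0.09) and 0.31 (0.05). PSAT1 and PSPH make serine and PYCR1 makes proline. ATF5 was called lower in mural nuclei.

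Of 16 breakdown genes tested, macrophage nuclei were higher in BCAT1, a branched-chain aminotransferase (log2 fold change 3.60), KYNU of tryptophan breakdown (3.35) and ARG1, arginase (2.90), 3 of 16, with a list median of 0.06 against -0.03 over all genes. Luminal nuclei were lower in BCAT1 (-1.93) and ARG1 (-1.38). KYNU and BCAT1 were higher in B and plasma nuclei (1.21 and 1.29) and lower in mural (-2.18 and -1.62) and myoepithelial nuclei (-1.73 and -1.58), and GLUL, glutamine synthetase, was lower in T and NK nuclei (-1.38). Of 20 genes of amino acid sensing by mTORC1, RRAGD was higher in luminal nuclei (1.47), and LAMTOR1 (1.22) and TFEB (1.13) in macrophage nuclei, while RRAGB was lower in B and plasma (-1.35), LAMTOR2 in mural (-2.79) and FNIP2 in myoepithelial nuclei (-1.26). The list medians were 0.30 in luminal (all genes 0.22) and 0.36 in macrophage nuclei (-0.03). Among 19 tRNA synthetases 0 were called in luminal nuclei by edgeR (10 of 19 at an unadjusted p under 0.05, against 8272 of 12648 genes, list median 0.33 against 0.22 over all genes), QARS1 was lower in B and plasma nuclei (-1.38) and WARS1 in mural nuclei (-1.65). Of 12 other carriers, the peptide carrier SLC15A1 (1.82), SLC25A29 (1.56), SLC17A8 (1.301) and CTNS (1.04) were higher in luminal nuclei, 4 of 12, and SLC15A3 lower (-2.08), with a list median of 0.29 against 0.22 over all genes. SLC15A3 (3.05) and SLC66A1 (1.5), both lysosomal, were higher in macrophage nuclei and SLC15A2 in B and plasma nuclei (4.34). SLC66A1 was lower in mural (-1.75) and SLC15A2 in myoepithelial nuclei (-1.54).

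Between stages, calls in these lists came in the comparison of L0 with the 4 other stages, where 1.98% of all genes were called in luminal nuclei and 0.842% in the whole gland. SESN1, a sestrin that restrains mTORC1, was higher at L0 in luminal nuclei (log2 fold change 3.22, SE 0.33, edgeR adjusted p = 0.00456) and in the whole gland (2.90). RRAGD was higher in both as well (1.97 and 2.22). Of the breakdown genes, KYNU (2.83) and BCKDHB (1.87) were higher at L0 in luminal nuclei, and KYNU in the whole gland (2.15).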

How the data were processed

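Nuclei of 10 glands (2 sows per stage at 5 stages), spots of 2 sections and cells of 2 milk samples were measured. The authors aligned the reads to Sscrofa 11.1 with CeleScope for nuclei and milk cells and with Space Ranger for sections, and deposited raw UMI counts per gene and barcode. The submitters' processing notes name Space Ranger 1.2.0 and Seurat 4.3.0. Strand and handling of introns in counting are not given in the sources used here, so overlapping genes are uncertain.

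The members and gene lists were chosen with earlier results of these data known. Of 30071 identifiers, 15983 carried a symbol in the files and 624 were named from the reference. All 56 members matched a RefSeq gene by symbol. As in the study, nuclei and cells were kept from 300 genes detected up to a mitochondrial share of 25%. No doublet caller was run. Of 77 markers fixed for the classes, 72 were in the files. A nucleus with at least 2 markers of a class, and more of it than of any other, was gated to it.

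UMI counts were summed per gland, and per gland and class with at least 20 nuclei, and tested with edgeR 4.0.16 (TMM, filterByExpr, quasi-likelihood) in R 4.3.3, with Benjamini-Hochberg adjustment over all genes tested. Calls needed an adjusted p under 0.05 and an absolute log2 fold change over 1. Class fits had the gland as a block. Stage fits held all 10 glands, 2 per stage. Replicates are separate sows. The main stage fits did not pair glands by replicate number. Correlations of deviations between stages ran from -0.52 to 0.39 in whole glands, with 2 of 10 pairs over 0.1. In luminal nuclei they ran from -0.44 to 0.30, with 1 of 10 over 0.1. These values cannot show whether glands shared a batch under other numbers. Counts were simulated with genes changed by a log2 fold of 2 or 3. From G90 to L0 the stage fit recovered 0 of 199 at 2 and 12 of 200 at 3 in the whole gland. In luminal nuclei it recovered 0 of 198 and 83 of 200. For L0 against the others it recovered 25 of 199 and 124 of 200 in the whole gland, and 42 of 198 and 140 of 200 in luminal nuclei. The class fit recovered 187 of 188 luminal changes at 2. Sections and milk, with 1 library per stage, had no test. Their ratios carry exact 95% intervals (scipy 1.17.1) that cover counting error only, over members with at least 10 UMIs, and a floor of 3 UMIs stands for a count of 0.

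Members were named if called, if among the 3 largest fold changes of a stage comparison, if in a panel of 10 carriers (SLC1A5, SLC3A2, SLC7A5, SLC7A8, SLC7A11, SLC7A7, SLC38A2, SLC6A14, SLC43A1 and SLC36A1), or if past 2-fold in sections or milk. Members named outside this rule, such as SLC6A8 and SLC38A10 in the sections, were chosen after their values were seen. Of the other lists, called genes are named. Counts cover all genes tested, and 2 genes that the rule would name are not reported here. Alternatives were DESeq2 1.42.0, its size factors in edgeR, no filter on low counts, stricter limits on nuclei, markers and sums, no gland block, the replicate block, only the stages compared, other totals, folds and count minimums, and each gland left out in turn.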

Additional observations from a re-analysis of the deposited data

Results flagged for a closer look

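SLC6A17 and SLC7A2 were picked because some stages lay above the mean of the other classes in both glands and others below it. How often this occurs among all genes was not counted, and the difference between stages was not tested. Values are log2 ratios of CPM + 1 in a class to the mean over the other classes of the same gland. SLC6A17 in endothelial nuclei was above the others at L0 (0.62 and 0.63) and below them at G90 (-2.33 and -1.31), L20 (-0.64 and -0.37), PI2 (-2.33 and -1.20) and PI7 (-1.52 and -2.95). The L0 sums held 4 and 2 UMIs of SLC6A17. SLC7A2 in fibroblast nuclei was above the others at G90 (0.24 and 2.47) and L0 (3.65 and 5.92) and below them at PI7 (-0.56 and -0.46). The L0 sums held 11 and 6 UMIs of SLC7A2, and a mural sum, the class highest in SLC7A2, had enough nuclei at PI7 in both glands but in neither L0 gland.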

How the results depend on the processing

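Of the class calls, 410 were kept, 42 lost and 1 turned over the fits without 1 gland. Over the other settings 272 were kept, 43 lost and 1 turned. Fits in which a call had no value are not in these counts. In endothelial nuclei SLC6A17 ranged from -1.36 to 0.072 without 1 gland (turned without PI7 replicate 1), and SLC7A5 was at 0.15 with stricter limits on nuclei (500 genes, 5% mitochondrial share). Without 1 gland, stage values of the whole gland ranged from -0.20 to 4.06 for SLC7A4 and -0.44 to 2.81 for SLC38A3 from L20 to PI2, turned without PI2 replicate 2 and replicate 1, and from -3.96 to 0.36 for SLC6A14 from PI2 to PI7, turned without PI2 replicate 2. In luminal nuclei SLC38A3 ranged from -1.05 to 2.40 from L20 to PI2 (turned without PI2 replicate 1). From PI2 to PI7 SLC7A4 ranged from -3.06 to 0.40, SLC36A2 from -2.62 to 0.62 and SLC6A14 from -3.49 to 0.67, turned without PI2 replicate 2. The cause was not tested.

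The share of all genes called in each fit below is not given here, so moves in these counts cannot be set against it. Without 1 gland in turn, the members called ranged from 2 to 6 in B and plasma (5 with all glands), 2 to 3 in endothelial (3), 3 to 5 in fibroblast (4), 11 to 14 in luminal (12), 9 to 12 in macrophage (11), 5 to 7 in mural (6), 2 to 5 in myoepithelial (3) and 1 to 3 in T and NK nuclei (2). Without the filter on low counts there were 3 in B and plasma, 8 in fibroblast and 5 in myoepithelial nuclei. With at least 3 markers there was 1 in endothelial nuclei and 8 in myoepithelial nuclei. Without nuclei holding a marker of another class there was 1 in fibroblast, 6 in luminal and 3 in macrophage nuclei. Fewer genes passed the filter under this gate: of the 46 calls 7 were kept and 4 lost, and the rest had no value. These gates left too few B and plasma and mural nuclei for a value, the last also too few myoepithelial nuclei. Without the gland block there was 1 in endothelial and 1 in T and NK nuclei, and 1 in the latter with DESeq2 size factors in edgeR. A 3-fold limit left 12 members in sections (26 at 2-fold) and 14 in milk (29), and the share of all genes past 3-fold is not given here.

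Between stages, against 0 calls, DESeq2 gave 2 (G90 to L0), 5 (L0 to L20) and 4 (L0 against the others) in the whole gland and 3, 3 and 5 in luminal nuclei. For the other stage fits that follow, the share of all genes called is not given here. With only the 2 stages there were 3 from G90 to L0 in each. Without the filter there were 3 from G90 to L0 and 1 for L0 against the others in luminal nuclei. Without 1 gland, counts ranged from 0 to 1 for L0 against the others in the whole gland, and in luminal nuclei from 0 to 1 from G90 to L0 and 0 to 2 for L0 against the others. The replicate block gave 0 calls in each stage comparison, and the other stage fits assumed no pairing of replicate numbers. Stages rest on 2 sows each, sections and milk on 1 library per stage, and mural and B and plasma sums on few UMIs.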
